A study of Mus musculus with 47 samples.

Results

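The cytosolic ribosomal protein genes are the genes of the proteins that build the small (Rps) and large (Rpl) subunits of the ribosome in the cytoplasm. They were taken by name: every symbol made of Rpl, Rps or Rplp and a number, with at most a short suffix, was matched in the 4 raw count tables, symbols ending in -ps and the Rps6k kinases were left out, and a total of at least 20 counts in a table was required. Of 83 matching symbols, 49 reached 20 counts in at least 1 table, out of 26608 gene symbols per table, and 47 did so in all 4. The number of members was 48 in inguinal white adipose tissue (IWAT), 49 in brown adipose tissue (BAT), 47 in liver and 47 in gastrocnemius muscle.

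Male mice of the inbred strain C57BL/6J received control food or food low in methionine, an essential amino acid, with 6 animals per diet. Feeding began at 5 weeks of age and went on for 11 weeks, with free access to food, housing at 23 C and a 5 h fast before the tissues were taken. The 8 groups were control and methionine-restricted IWAT, BAT, liver and gastrocnemius from the same 12 animals, each with 6 libraries except restricted gastrocnemius, where 5 libraries were analysed. Libraries are named by diet (CON or MR) and animal number, and the values count sequence tags that each mark the 3′ part of a transcript, 1 library per animal and tissue.

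Ribosomal proteins are made in matched amounts, and their transcripts are among the most abundant in a cell. Their messenger RNAs begin with a C followed by a run of pyrimidines, the 5′ terminal oligopyrimidine (TOP) tract, through which the amino acid-sensitive kinase complex mTORC1 and the binding protein LARP1 set how strongly they are translated. Much of their known control by amino acid supply is therefore on translation, which tag counts do not measure. Some members have paralogs with a narrower range of tissues, such as Rpl3l in striated muscle.

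A member can be counted only through its tag. A tag is the stretch next to the CATG site of the enzyme NlaIII that lies nearest the 3′ end of a transcript, and the labels state that only fragments with a unique match among RefSeq genes were used. Ribosomal protein genes have many processed pseudogenes with nearly the same sequence. Of the 83 symbols, 30 had 0 counts in all 47 libraries, among them Rpl3, Rpl5, Rpl11, Rpl41, Rplp1, Rplp2, Rps2 and Rps18, and 4 had counts but fewer than 20 in every table, among them Rpl13, Rpl23a and Rps27. Why these symbols had few or no counts was not tested, and a 0 was not read as a measure of their level. Tags were predicted from GENCODE vM1 transcripts and searched in the NCBIM37 genome, an older build than the GRCm38 named in the labels, so they describe likely tags and not the counted ones.

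Predicted tags of the 34 symbols below the limit lay more often in several places of the genome than those of the 49 members. Of the 29 such symbols with a full-length tag, 23 (79.3%) had it at more than 1 exact site, against 24 of 46 members (52.2%), and 22 (75.9%) had a site in an annotated pseudogene, against 23 members. Rps21 and Rpl35a had no CATG in the transcript used. The following tags, with the NlaIII site in capitals, show the contrast between a symbol with 0 counts and a tag copied through the genome (Rps2 and Rpl29), a symbol with 0 counts and a unique tag (Rpl11), counted members with a unique tag (Rpl23, Rpl3l and Rpl39l) and the most counted member (Rpl10a).
Rps2: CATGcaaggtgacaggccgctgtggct
Rpl29: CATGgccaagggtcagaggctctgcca
Rpl11: CATGttacagttgtgtgtttgtgaaag
Rpl23: CATGcacatatggtaaattatctttgg
Rpl3l: CATGtaagatgtctggaatggagcaca
Rpl39l: CATGtgacaattgaaattagattattt
Rpl10a: CATGggcaagccccagcgtctgtatta
The Rps2 and Rpl29 tags each had 34 exact genome sites, and up to 2 mismatches gave 70 and 67. The tags of Rpl11, Rpl23, Rpl3l and Rpl39l had 1 site each, also with up to 2 mismatches. Rpl11 was at 0 in spite of its single site, and Rpl10a, with 7 exact sites, took the most counts of all members. The tag predicted for Rpl7l1 matched 13752 exact genome sites, and which tag its counts come from was not tested.

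Members were close to the limit in few cases. Rps19 had 24 counts in BAT and 9, 6 and 1 in IWAT, liver and gastrocnemius. Rpl39l had 216 in IWAT and 431 in BAT, and 5 and 6 in liver and gastrocnemius, which made it a member in the fat depots only. Rpl6 stayed just inside in every table, with 21 to 52 counts. Levels are compared here within a gene, not between genes, because the share of a gene's tags that could be placed uniquely is not known.

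The starts of the genes were checked for the TOP tract in RefSeq windows on GRCm38.p6, the assembly series that the labels name. A C followed by at least 7 further C or T, beginning within 15 bases of an annotated start on the transcribed strand, was present for 17 of 40 members with a window (42.5%) and for 3551 of 27025 genes (13.1%). The heptamer CCGGAAG, a form of the ETS factor site read on both strands within 250 bases before to 50 after the start, was present for 16 members (40.0%) and for 9.9% of genes. TATAAA, read the same way, was present for 5 members (12.5%) and for 15.7% of genes. The tracts of Rpl7a, Rpl14 and Rps9 are shown in capitals, with the window of the muscle paralog Rpl3l, which held none. The annotated start is base 16 of each window of 30, and all 4 lie on the plus strand.
Rpl7a, chr2:26910792-26910821: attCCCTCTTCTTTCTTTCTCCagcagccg
Rpl14, chr9:120571502-120571531: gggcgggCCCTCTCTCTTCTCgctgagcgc
Rps9, chr7:3704026-3704055: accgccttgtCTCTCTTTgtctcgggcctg
Rpl3l, chr17:24727811-24727840: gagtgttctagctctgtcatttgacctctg
These are matches of letters at annotated starts and not measured starts of transcripts.

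Depth ran from 4887004 to 13117537 counts per library. Marker genes went with the tissue labels. Summed hepatocyte markers lay between 95039 and 267768 CPM (counts scaled by library size, here within the tissue) in liver and at most at 10990 CPM elsewhere, and summed skeletal muscle markers between 161192 and 309878 CPM in gastrocnemius and at most at 28117 CPM elsewhere. Summed adipocyte markers were at least 29524 CPM in IWAT and 22020 CPM in BAT, and at most 1717 CPM in the other 2 tissues. Brown adipocyte markers summed to 4091 to 10174 CPM in BAT and 143 to 5095 CPM in IWAT. Each library is labelled with its own animal, so p-values rest on the spread between animals.

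Members took between 1.15% and 6.86% of the counts of a library. In liver the share was 1.33, 1.63, 1.84, 1.92, 2.05 and 2.25% in the 6 control libraries and 1.78, 1.81, 2.09, 2.09, 2.10 and 2.20% in the 6 restricted ones. In IWAT it was 1.57% to 5.40% under control and 1.48% to 3.61% under restriction, in BAT 1.19% to 1.96% and 1.15% to 6.86%, and in gastrocnemius 1.23% to 1.93% and 1.21% to 2.75%. The groups overlapped in all 4 tissues. Rpl10a, which forms part of the mobile L1 stalk where spent transfer RNA leaves, was the most counted member in each tissue and took 13.2% of the member counts in IWAT, 33.2% in BAT, 16.8% in liver and 12.5% in gastrocnemius. The BAT share was 13.4% without library MR3116.

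The high shares fell in few libraries. In IWAT, CON3107 (5.40%), MR3104 (3.61%), MR3102 (3.15%) and MR3113 (2.55%) had the highest shares and also the highest sums of 21 lymphocyte markers, at 3606, 1862, 1816 and 1446 CPM, against 34.4 to 99.7 CPM in the other 8 libraries. The median lymphocyte sum was 56.8 CPM under control and 772 CPM under restriction. All but 1 of the 21 markers were detected in IWAT, Cd52 being at 0 in every library. In gastrocnemius, MR3109 had the highest share (2.75%) and a lymphocyte sum of 961 CPM, where the other libraries had 7.81 to 22.7 CPM. In BAT, CON3106 had the highest control share (1.96%) and a lymphocyte sum of 689 CPM, against 9.66 to 19.5 CPM. The part of lymphocyte RNA in these shares was not tested.

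**Figure D1:**
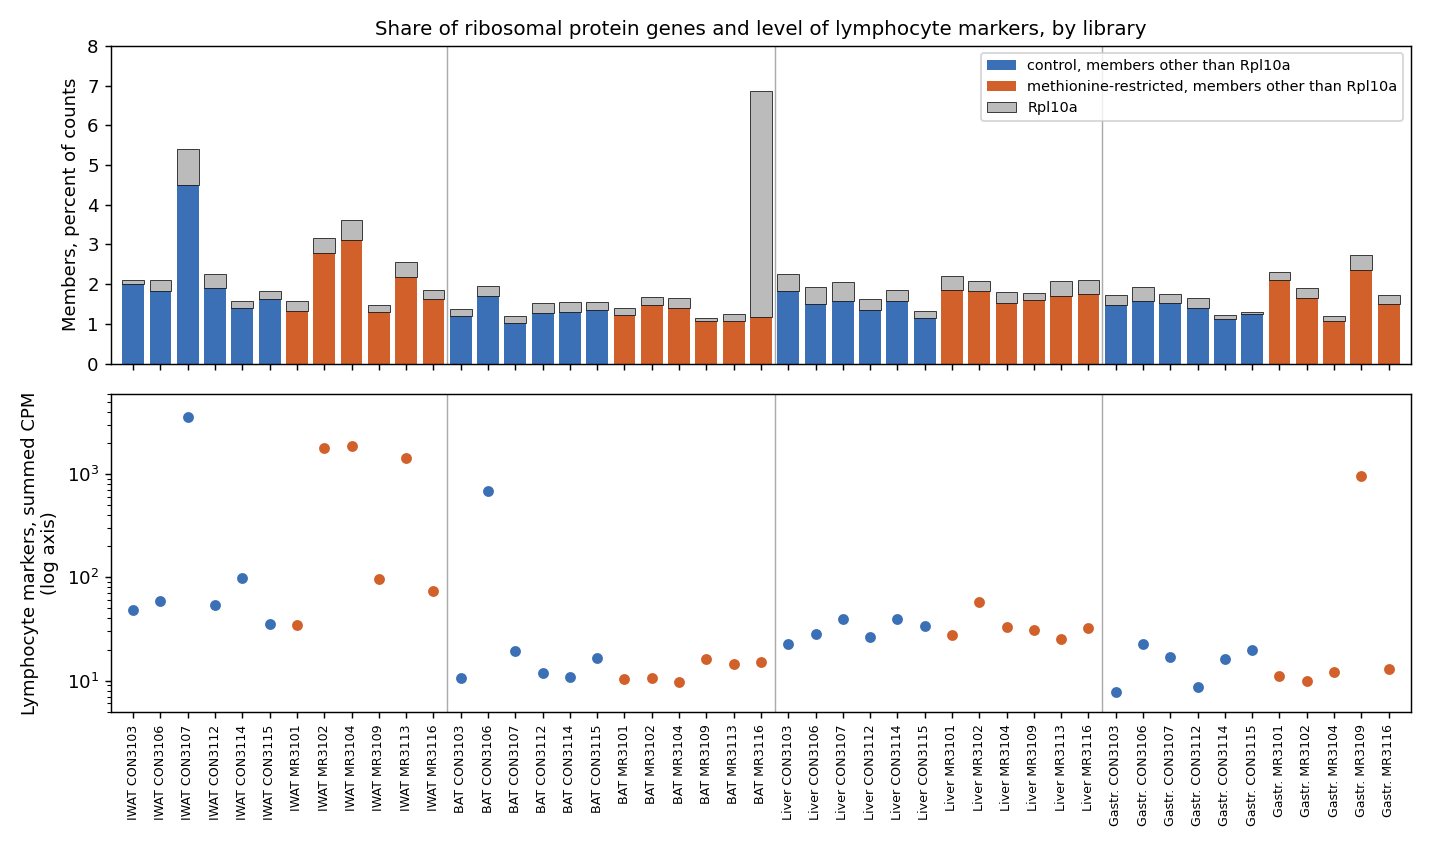
Upper panel: counts of the ribosomal protein genes as a percent of all counts in each of 47 libraries, with Rpl10a as the grey top of the bar. Lower panel: summed CPM of lymphocyte marker genes on a log axis. The highest bars are BAT MR3116, where Rpl10a alone holds 5.69% of the counts, and IWAT CON3107, which also has the highest lymphocyte sum (3606 CPM).

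The bar of BAT MR3116 rose to 6.86% through Rpl10a alone. Without that gene its members held 1.17% of the counts, inside the range of the other BAT libraries (1.02% to 1.70%).

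No member differed between the diets past the threshold in any tissue. The test was edgeR's quasi-likelihood F test with Benjamini-Hochberg adjustment over all genes tested in the tissue and a threshold of 0.05. It called 0 of 43 members in IWAT, where it called 0.027% of all genes, 0 of 42 in BAT (1.11% of all genes), 0 of 43 in liver (2.26%) and 0 of 44 in gastrocnemius (0%). At these backgrounds a count of 0 members is near the share of all genes and is no result about the members. At an unadjusted p under 0.05, 1 member in IWAT (2.33%), 2 in BAT (4.76%), 2 in liver (4.65%) and 4 in gastrocnemius (9.09%) passed, where 8.78%, 13.6%, 14.5% and 6.32% of all genes did. DESeq2 and limma, on counts or on the authors' normalized values, also called 0 members in each tissue. The share of all genes was not counted for them, so these counts are no result about the members either.

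The members as a list lay near the middle of all genes. Their median log2 fold change, restricted over control, was 0.07 in IWAT, 0.03 in BAT, 0.11 in liver and -0.01 in gastrocnemius, and that of all genes was -0.02, 0.00, 0.01 and -0.04. Above 0 were 28 of 43 members in IWAT (65.1%, against 48.5% of all genes), 24 of 42 in BAT (57.1% against 50.2%), 28 of 43 in liver (65.1% against 51.5%) and 18 of 44 in gastrocnemius (40.9% against 46.5%). No member had CPM values that kept the diets apart without overlap, where 1.58%, 1.94%, 2.47% and 0.276% of all genes did in the same order of tissues. The IWAT median was -0.17 when the lymphocyte marker level was a covariate and -0.13 without the 4 libraries with the highest lymphocyte sums.

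How small a difference could be seen depended on the tissue. The median SE of a member's log2 fold change was 0.18 in liver and 0.23 in BAT, and 0.52 in both IWAT and gastrocnemius. The 95% interval lay wholly between -1 and 1, that is within a 2-fold change either way, for 40 of 43 members in liver and 32 of 42 in BAT. It did so for only 4 of 43 in IWAT and 5 of 44 in gastrocnemius, and a 2-fold change of the others was not excluded by the interval.

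**Figure D2:**
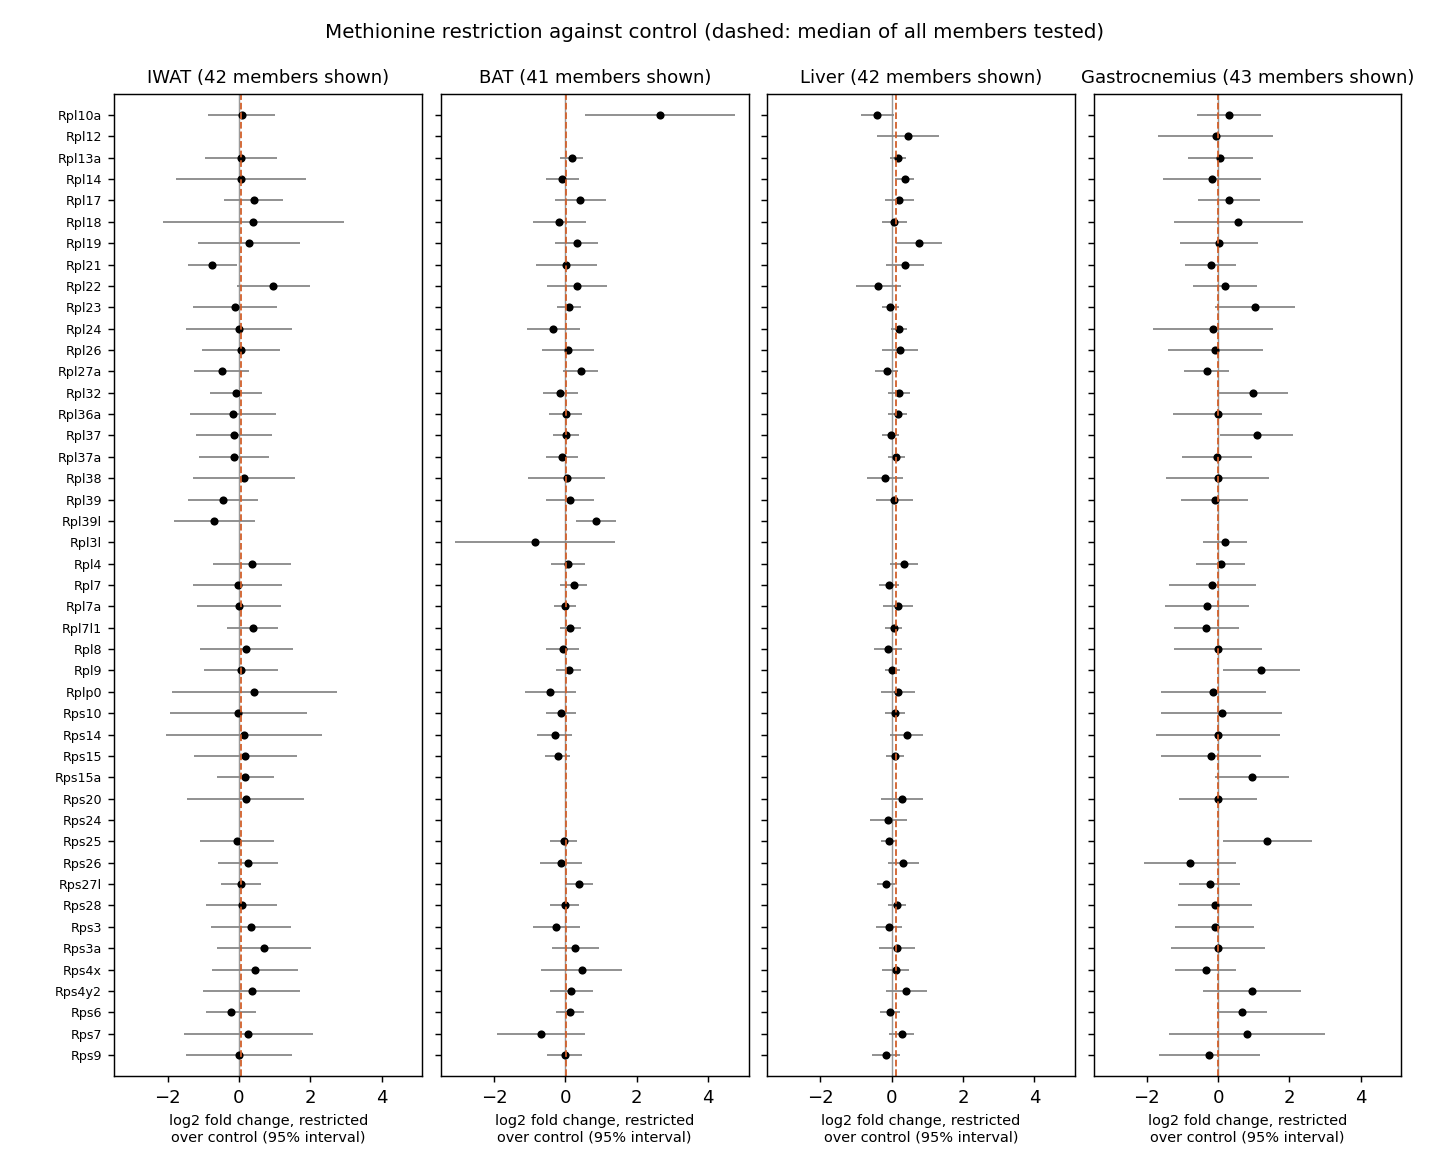
Log2 fold change of each tested ribosomal protein gene, restricted over control, with its 95% interval (edgeR quasi-likelihood), in 4 tissues, without 1 member that is not reported here. The dashed line is the median of the members. Intervals are narrow in liver (median SE 0.18) and BAT (0.23) and wide in IWAT and gastrocnemius (both 0.52), and Rpl10a in BAT has the highest estimate, 2.64.

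The members with the smallest p in liver were Rpl14 and Rpl19, both of the large subunit. Rpl14, a protein of the large subunit surface, had a lowest, median and highest level of 136, 203 and 236 CPM under control and 228, 237 and 275 CPM under restriction. Only control library CON3112 (236 CPM) reached into the restricted range. The log2 fold change was 0.36 ± 0.13 (SE, n = 6 and 6), with a quasi-likelihood adjusted p of 0.189, the lowest of any member in liver. Rpl19, which forms bridges between the subunits, had 0.513 to 1.32 CPM under control and 0.844 to 2.08 CPM under restriction, a low level, and the ranges overlapped. Its log2 fold change was 0.76 ± 0.30 with an edgeR adjusted p of 0.237. The lowest estimate in liver was that of Rpl10a, at -0.40 ± 0.21 (edgeR adjusted p = 0.410), with 2262 to 4574 CPM under control and 1703 to 3882 CPM under restriction.

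Of the genes often used as references in quantitative PCR, Rpl13a, Rpl19, Rpl32 and Rplp0 could be tested and Rps18 could not. In liver, Rpl13a had 437 ± 68.7 CPM under control and 494 ± 25.2 CPM under restriction (SD, n = 6 and 6), and its log2 fold change of 0.18 had a 95% interval of -0.05 to 0.41. In BAT its interval was -0.14 to 0.50, in IWAT -0.96 to 1.08 and in gastrocnemius -0.85 to 0.97. Rpl32 had intervals of -0.10 to 0.52 in liver and -0.64 to 0.35 in BAT. Rplp0, the base of the acidic stalk that recruits translation factors, was counted at only 5.01 to 12.9 CPM in liver and 4.28 to 18.5 CPM in BAT, with intervals of -0.31 to 0.64 and -1.14 to 0.29. Its partners in the stalk, Rplp1 and Rplp2, were at 0 counts throughout.

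In BAT the members with the smallest p were Rpl39l and Rpl10a. Rpl39l, a paralog of the exit tunnel protein Rpl39 known from male germ cells (chromosome 16, 10170197 to 10174911, GRCm38), had 1.53, 2.89, 3.26, 3.27, 3.59 and 5.15 CPM in the 6 control libraries and 3.57, 5.42, 5.92, 6.12, 6.88 and 7.28 CPM in the 6 restricted ones. The restricted values were the higher ones except in MR3116, which lay below 2 control libraries. The log2 fold change was 0.86 ± 0.26 with an edgeR adjusted p of 0.164, and over all alternatives it ranged from 0.70 to 1.03 with adjusted p from 0.0625 (DESeq2) to 0.520 (fit of all 47 libraries). Its partner Rpl39 had 0.13 ± 0.31. In IWAT the estimate for Rpl39l was -0.69 ± 0.52.

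Rpl10a (chromosome 17, 28328471 to 28331033) owed its BAT estimate to 1 library. Its level was 1629.8, 1749.7, 2033.6, 2192, 2298 and 2362 CPM under control. Under restriction it was 844, 1715, 1825, 2194 and 2577 CPM in 5 libraries and 67509 CPM in MR3116. The log2 fold change was 2.64 ± 0.98 with an edgeR adjusted p of 0.244, and without MR3116 it was -0.17 with an adjusted p of 0.819. MR3116 was not the highest BAT library for Rpl9 (1552 CPM) or Rps25 (916 CPM). It was the highest for Rps4x, Rpl27a and Rpl23, among others, at 2.46, 0.58 and 0.31 above the tissue median on the log2 scale. For Rps7 and Rpl26, among others, it was the lowest, with deviations of -2.54 and -1.86. The SD of its members' deviations was 1.08, where BAT libraries had 0.31 to 1.12. Its total of 7988761 counts lay inside the range of the tissue.

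In IWAT a single member passed at an unadjusted p under 0.05. Rpl21, a large subunit protein, had 2.26 to 4.66 CPM with a median of 3.07 under control and 1.22 to 2.82 CPM with a median of 1.83 under restriction. The log2 fold change was -0.74 ± 0.31 with an edgeR adjusted p of 0.487, the lowest of the members there. Rpl22, an RNA-binding protein of the large subunit with a known role in T cell development, had the highest estimate, 0.96 ± 0.47, with 2.17 to 10.8 CPM under control and 3.33 to 17.7 CPM under restriction (edgeR adjusted p = 0.625). The 43 estimates ran from -0.74 to 0.96.

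In gastrocnemius 4 members passed at an unadjusted p under 0.05, all with higher restricted means, and all 4 rested on library MR3101. Rps25, a small subunit protein used by some viral internal ribosome entry sites, had 794, 820, 1041, 1100.3, 1181 and 1229 CPM under control and 684, 1196, 1381, 1564 and 8556 CPM under restriction, the last value in MR3101. The log2 fold change of 1.38 ± 0.58 (edgeR adjusted p = 0.764) was 0.24 without that library. Rpl9 had 1094 to 1478 CPM under control and 1279, 1609, 1683, 1751 and 8752 CPM under restriction, and its log2 fold change of 1.21 ± 0.50 was 0.29 without MR3101. Rpl37 and Rpl32 had 1.08 ± 0.48 and 0.99 ± 0.45, and 0.35 and 0.24 without MR3101. The adjusted p was 0.764 for each of these in the edgeR test, and 1.00 without that library.

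The library MR3101 of gastrocnemius and the libraries CON3106, CON3115 and MR3116 of IWAT stood apart over all genes, with median Spearman correlations to the other libraries of their tissue of 0.582, 0.628, 0.719 and 0.647, where the other 43 libraries had 0.857 to 0.972. Members spread widely in them. The SD of the members' log2 deviations from the tissue median was 3.20 in MR3101 of gastrocnemius and 2.07, 1.47 and 2.47 in the 3 IWAT libraries, against 0.37 to 0.67 in the other IWAT libraries and 0.22 to 0.88 in the other gastrocnemius libraries. Rps14 was among the 5 lowest members in all 4 libraries, and Rpl23 and Rps4y2 among the 5 highest in all 4. In MR3101, Rps14, Rps7, Rps10 and Rplp0 were among the lowest, 6.48 to 7.23 below the tissue median on the log2 scale, and Rps4y2, Rps25, Rpl9, Rpl23 and Rpl32 highest. In CON3106 of IWAT, Rpl18, Rps14, Rplp0, Rpl14 and Rps10 lay lowest, and Rpl23, Rps4y2, Rps25, Rpl9 and Rpl37 highest.

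Values for 3 members show the size of this, of which Rpl14 was chosen after its values were seen. Rpl14 had 10.4, 27.03 and 7.85 CPM in CON3106, CON3115 and MR3116 of IWAT, where the other 9 libraries had 146 to 465 CPM, and 5.10 CPM in MR3101 of gastrocnemius against 166 to 346 CPM. Rpl23, a large subunit protein that also binds Mdm2, had 6895 and 6872 CPM in CON3106 and MR3116, 3056 CPM in CON3115 and 1163 to 3000.2 CPM in the other IWAT libraries. Rplp0 was at 0 counts in CON3106 and MR3116 of IWAT and in MR3101 of gastrocnemius.

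Members whose predicted tag lay farther from the 3′ end tended to be lower in these libraries. Spearman's rho between the deviation and the distance of the tag from the 3′ end was -0.57, -0.44 and -0.55 over 43 members in CON3106, CON3115 and MR3116 of IWAT and -0.52 over 44 members in MR3101. Over all genes with a predicted tag it was -0.43, -0.38, -0.47 and -0.49. In the other IWAT and gastrocnemius libraries rho over all genes was between -0.07 and 0.27, and that over members ranged from -0.43 to 0.58. In BAT these ran from -0.23 to 0.20 and from -0.45 to 0.38, and in liver from -0.14 to 0.07 and from -0.37 to 0.36. Gastrocnemius CON3114, CON3115 and MR3104 had -0.39, -0.43 and -0.32 over members. They held 1, 1 and 4 members at least 2 below the tissue median on the log2 scale, and 0 as far above. These values are descriptions across genes of the same library. Rps6 went the other way, with a tag 585 bases from the end and levels 0.41 to 1.42 above the tissue median on the log2 scale. Whether RNA quality or library construction moved with this was not tested. No member passed the diet test in IWAT without these 3 libraries, where the share of all genes was not counted, and the median of the members was then 0.03.

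**Figure D3:**
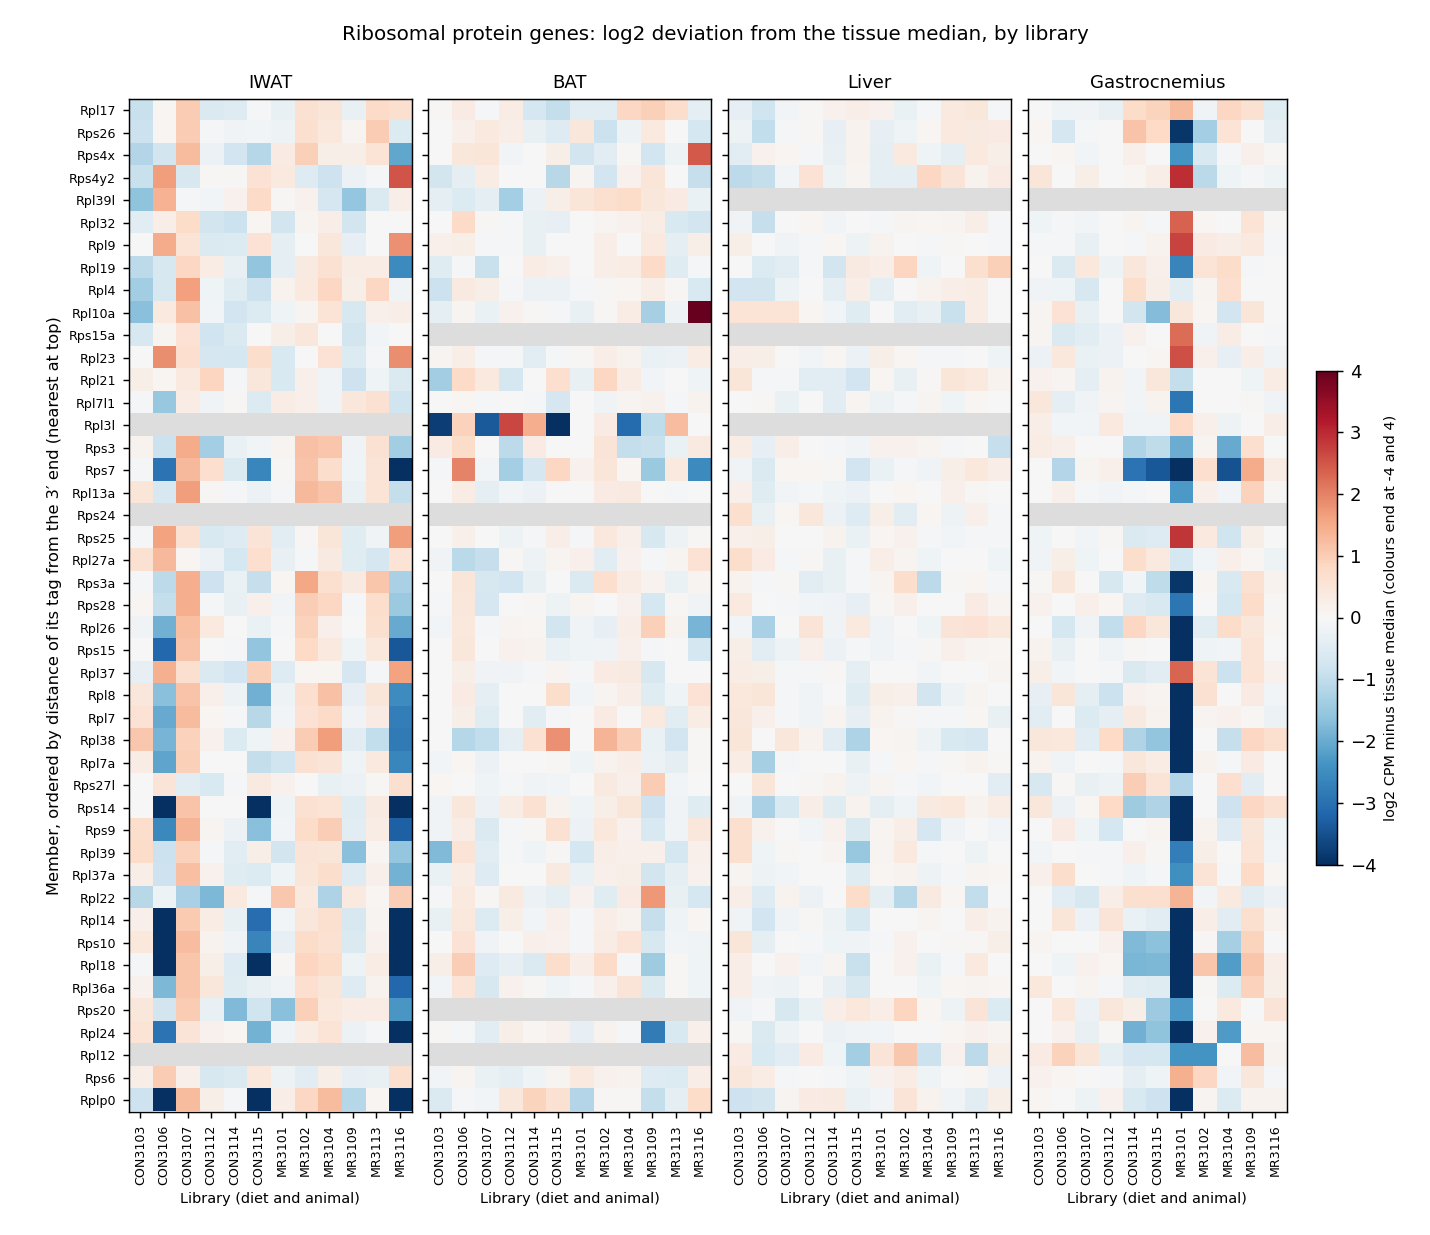
Log2 CPM of each ribosomal protein gene minus its median over the libraries of the tissue (colour scale from -4 to 4), for 47 libraries, with members ordered by the distance of their predicted tag from the 3′ end. Grey rows were not tested in that tissue, and 1 member is not reported here. IWAT CON3106, CON3115 and MR3116 and gastrocnemius MR3101 are dark blue over many of the lower rows, and Rpl10a is dark red in BAT MR3116.

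**Figure D4:**
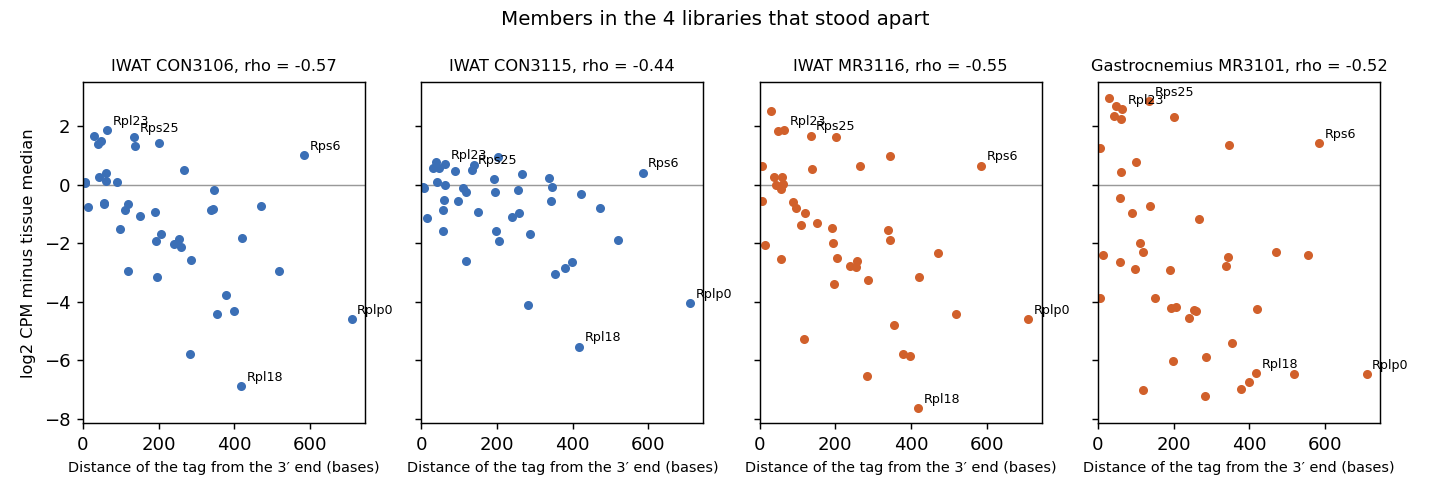
Log2 deviation of each member from its tissue median against the distance of its predicted tag from the 3′ end, in the 4 libraries that stood apart. Spearman's rho is -0.57, -0.44, -0.55 and -0.52, with Rps6 above 0 at 585 bases in each panel.

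No member passed the test for a diet difference that depends on the tissue. The interaction of diet and tissue, tested in 1 edgeR fit of all 47 libraries, called 0 of 46 members, and 0.524% of 13541 genes. At an unadjusted p under 0.05 there were 3 members, where 13.9% of all genes passed. By edgeR's test the adjusted interaction p was 0.172 for Rpl10a, 0.294 for Rpl39l and 0.341 for Rps25. At 0.524% of all genes, a count of 0 members is near the share and is no result about the members. Limma voom with the animal as a block called 0 members too, and its share of all genes was not counted. Rpl10a and Rps25 are the members whose BAT and gastrocnemius values rest on MR3116 and MR3101. In this fit Rpl39l had log2 fold changes of 0.86 in BAT and -0.65 in IWAT, and its difference between tissues did not pass the threshold.

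Levels of the members differed between tissues under the control diet, but fewer members than genes in general passed. In the same fit, 15 of 46 members (32.6%) differed among the 4 control groups, where 77.6% of all genes did. Without the 4 libraries that stood apart it was 32 of 46 (69.6%) against 88.5% of all genes, and the 15 were all among the 32. Over the 40 members that passed the count filter in every tissue, 11 (27.5%) differed, against 72.5% of 9211 genes that did, and without the 4 libraries 27 (67.5%) against 87.2%. In bulk tissue, fewer cells of a type and less RNA per cell cannot be told apart. CPM in the next 5 paragraphs are scaled over all 47 libraries together and so differ from those scaled within a tissue.

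Liver had the highest control mean for 27 of the 46 members and BAT the lowest for 22, and without the 4 libraries these were 26 and 30. This order was not counted over all genes, so it describes the members and sets them apart from no other genes. Between liver and BAT, 12 members were higher in liver and 3 lower, at an adjusted p under 0.05 where 47.9% of all genes differed. Without the 4 libraries 27 were higher and 3 lower (62.5% of all genes). The 3 lower were Rps4y2, Rpl3l and Rpl39l both times. Rpl3l, Rpl39l, Rps15a and Rps24 passed the count filter only in tissues where they are high. Their calls, here and in the pairs below, are no result, and the counts by pair were not taken without them. The median log2 difference of the members was 0.69, and that of all genes -0.07. With upper-quartile scaling both medians moved down, to 0.45 and -0.31, and the counts were 7 higher and 3 lower. For that scaling the share of all genes was taken over the 4 control groups only (78.3%) and not by pair. Its counts, here and below, are therefore no result about the members. Between gastrocnemius and liver, 3 members were higher and 6 lower (56.8% of all genes), with a median of -0.48. Without the 4 libraries these were 3 and 18 (69.3% of all genes), and with upper-quartile scaling 4 and 4, with a median of -0.23 where all genes had 0.20. Between BAT and IWAT, 2 were higher in BAT and 4 lower (33.4% of all genes), and 3 and 11 without the 4 libraries (39.9%). Liver against IWAT gave 7 higher and 2 lower (49.7% of all genes), with upper-quartile scaling 4 and 3. Gastrocnemius against IWAT gave 6 and 5 (52.5%) with a median of 0.04, and 6 and 8 (63.0%) with a median of -0.08 without the 4 libraries. Against BAT it gave 4 and 3 (40.9%), or 12 and 4 (56.6%) without them. Away from the paralogs, the highest control mean was less than 2 times the lowest for 20 of 41 members, and the ratio ran from 1.23 for Rps15 to 6.10 for Rps7. Without the 4 libraries it ran from 1.14 for Rpl24 to 6.14 for Rps7, and Rps15 had 1.54. That ratio was not taken over all genes either.

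Of the 5 paralogs in the fit, Rps27l, Rps4y2 and Rpl7l1 were among the 15 members that differed, with 10 of the other 41 members. Without the 4 libraries that stood apart these paralogs differed again, with 27 of the other 41. Among all genes 77.6% differed, and 88.5% without those libraries. Rpl3l and Rpl39l are also counted in the 15, but they passed the count filter only in tissues where they are high. The same holds for Rps24, which passed it in liver only, and Rps15a, which passed it in gastrocnemius and IWAT only. Both are among the 10 and among the 27. The calls of Rpl3l, Rpl39l, Rps24 and Rps15a are no result, and the levels of Rpl3l and Rpl39l are given without a test between tissues. Rpl3l (chromosome 17, 24727826 to 24736143), the striated muscle form of Rpl3, had 412 to 604 CPM with a median of 425 in control gastrocnemius and 390 to 735 CPM with a median of 522 in restricted gastrocnemius. Its control medians were 17.6 CPM in BAT (range 0 to 117), 0.546 CPM in liver (0.126 to 3.39) and 0.293 CPM in IWAT (0 to 8.97). Gastrocnemius was above every library of the other tissues. The diet estimate in gastrocnemius was 0.19 ± 0.28 on the log2 scale. Its partner Rpl3 was at 0 counts in every library, so the exchange between the paralogs could not be followed.

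Rpl3l in BAT moved with muscle markers. Scaled within BAT, libraries CON3115 (0 CPM) and CON3107 (1.70 CPM) had low Rpl3l and summed muscle markers of 538 and 390 CPM, and the library with the highest Rpl3l, CON3112 (125 CPM), had 28117 CPM. All 12 muscle markers were detected in each tissue, and the part of muscle RNA in the BAT values was not tested. Per 100000 counts of the muscle markers, Rpl3l had 120 to 416 counts in gastrocnemius, 210 to 636 in 11 BAT libraries and 0 in CON3115, where a count of 0 allows up to 3 counts. Liver libraries CON3114 and MR3104 had the highest Rpl3l in liver, 2.77 and 7.97 CPM, and the highest muscle sums there, 1133 and 1725 CPM.

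Rpl39l was the reverse case, counted in the fat depots and close to 0 elsewhere. Control libraries had 0.576, 2.37 and 5.97 CPM (lowest, median, highest) in IWAT and 1.43, 3.14 and 4.93 CPM in BAT, and at most 0.126 CPM in liver and 0.0982 CPM in gastrocnemius. The 12 liver libraries held 5 counts in all and the 11 gastrocnemius libraries 6, where a count of 0 in 1 library allows up to 3. The control libraries of the fat depots lay above those of the other tissues, and IWAT and BAT overlapped.

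Rps27l, a paralog of Rps27 known as a target of p53 (chromosome 9, 66944624 to 66949522), had its highest levels in liver, 722 to 1147 CPM with a median of 843 under control. The control medians were 402 CPM in BAT, 391 CPM in gastrocnemius and 287 CPM in IWAT. Under control, all liver values lay above those of IWAT and BAT, while gastrocnemius (264 to 806 CPM) reached into the liver range. Under restriction, BAT (401 to 879 CPM) reached into the range of liver (604 to 899 CPM) through 1 library, MR3109. Rpl7l1, a paralog of Rpl7, had medians of 50.7 CPM in liver, 36.2 CPM in BAT, 22.8 CPM in IWAT and 21.0 CPM in gastrocnemius, and the latter 2 did not differ past the threshold (edgeR adjusted p = 0.916). The symbol Rps4y2, listed by RefSeq as Rps4l, a transcribed pseudogene on chromosome 6, had medians of 65.9 CPM in BAT, 58.3 CPM in IWAT, 22.5 CPM in liver and 8.82 CPM in gastrocnemius.

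Among the other members, Rps6, the small subunit protein phosphorylated by the S6 kinases downstream of mTORC1, was highest in liver and lowest in gastrocnemius. Control levels were 35.3, 38.8 and 54.5 CPM (lowest, median, highest) in liver, 17.9, 21.3 and 25.7 CPM in BAT and 11.6 to 17.2 CPM in gastrocnemius, with no overlap between these 3 tissues, although BAT and gastrocnemius missed the threshold (edgeR adjusted p = 0.0571, and 0.00803 without the 4 libraries that stood apart). IWAT (19.0 to 57.5 CPM) overlapped liver and BAT. Rpl4, which lines the exit tunnel, had another order, with control medians of 14.5 CPM in gastrocnemius, 11.0 CPM in liver, 5.48 CPM in BAT and 3.21 CPM in IWAT. Its edgeR adjusted p over the control groups was 2.15e-05, and that of Rps6 was 1.24e-06. Gastrocnemius and liver did not differ past the threshold for Rpl4 (edgeR adjusted p = 0.206).

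**Figure D5:**
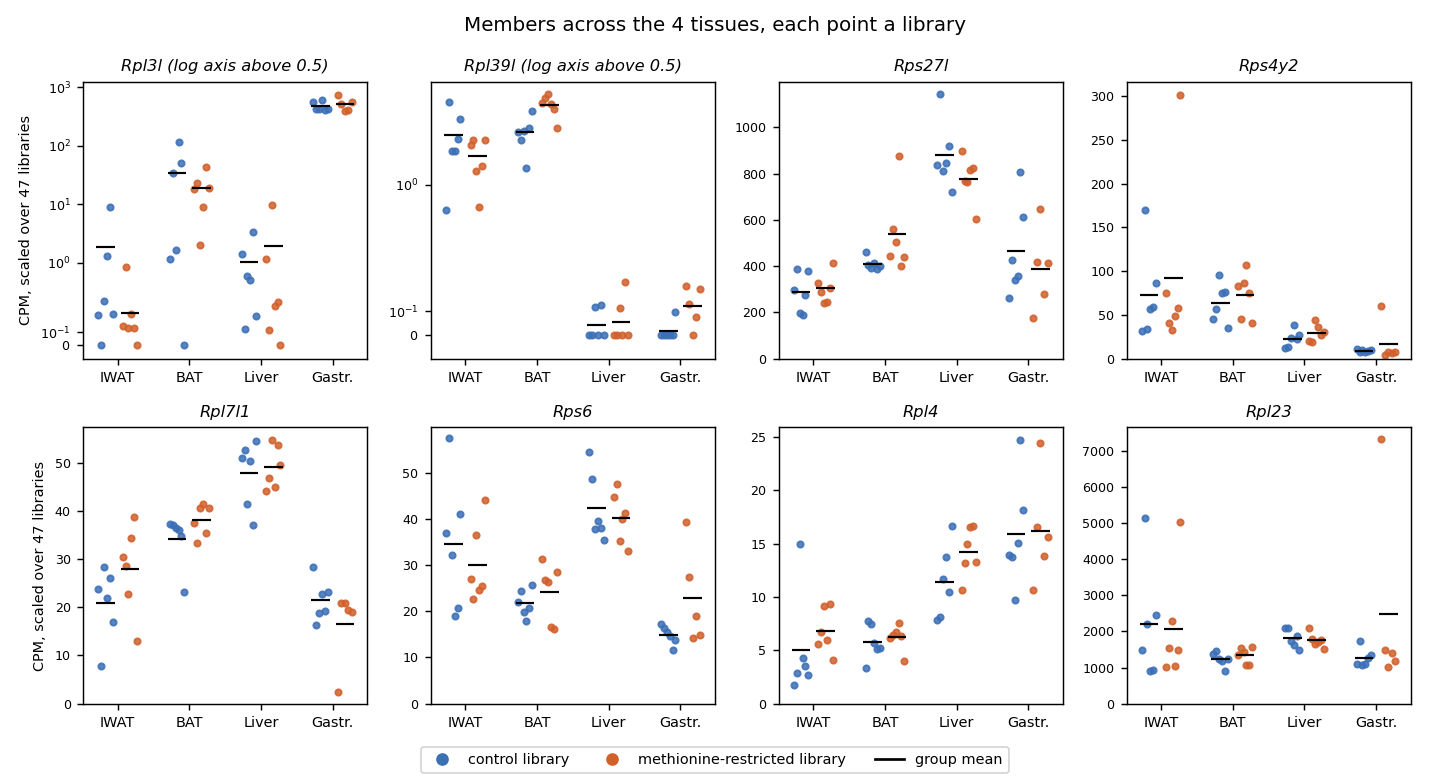
CPM of 8 ribosomal protein genes in each of 47 libraries, scaled over all libraries, by tissue and diet, with group means as lines. Rpl3l and Rpl39l are on an axis that is logarithmic above 0.5 CPM and linear below. Rpl3l is highest in gastrocnemius (390 to 735 CPM), Rpl39l is near 0 in liver and gastrocnemius, and single high Rpl23 values in IWAT and gastrocnemius are libraries that stood apart.

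The ribosomal components that the naming pattern leaves out did not pass the diet test either. With 0% to 2.26% of all genes called per tissue, this is no result about them. Gnb2l1, the scaffold protein Rack1 of the small subunit, had log2 fold changes of -0.08, -0.17, 0.18 and -0.13 in IWAT, BAT, liver and gastrocnemius. Rpl36al, a paralog of Rpl36a, had 86.3 ± 28.0 CPM under control and 56.0 ± 18.3 CPM under restriction in liver (SD, n = 6 and 6), a log2 fold change of -0.62 ± 0.24 with an edgeR adjusted p of 0.219. Fau had -0.70 ± 0.28 in liver (edgeR adjusted p = 0.253) at 3.34 and 2.06 CPM, and Rpsa stayed under 4 CPM on average in every group.

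Other genes of the translation machinery were followed as lists. No gene passed in any tissue among the 18 tested of 20 translation factors and other genes with TOP messenger RNAs, the 40 to 43 tested of 45 ribosome biogenesis genes, or the 23 tested of 27 genes of mTORC1 and its control of TOP translation. The test called 0.027%, 1.11%, 2.26% and 0% of all genes in IWAT, BAT, liver and gastrocnemius. These counts of 0 are near those shares and are no result about the lists. The median log2 fold changes in IWAT, BAT, liver and gastrocnemius were 0.04, -0.09, 0.14 and -0.06 for the translation factors. They were 0.16, 0.09, 0.07 and -0.04 for ribosome biogenesis, and 0.15, -0.03, 0.08 and 0.06 for the mTORC1 list. The lowest edgeR adjusted p in these lists was 0.0504, in BAT among the translation factors. Of 8 brown adipocyte markers, 2 were higher under restriction in BAT in the same test.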

How the data were processed

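Tags next to the last NlaIII site of each transcript were sequenced on the SOLiD platform, and fragments with a unique match among mouse RefSeq genes were counted per gene symbol, per the labels' protocols. The submitters' processing notes name mm10, GRCm38.p1 and DESeq. For aligner, counter and DESeq version, nothing was found in the labels or file headers. Raw count tables as deposited, 1 per tissue, were used for all tests. The normalized signal tables, which the authors deposited, equal the raw count divided by 1 factor per library within 0.001, and were used in alternatives only.

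Each tissue was fitted in R 4.3.3 with edgeR 4.0.16 (TMM factors, filterByExpr with a minimum count of 10, quasi-likelihood F test, Benjamini-Hochberg adjustment over all genes tested, threshold 0.05). Genes kept held 99.6% to 99.8% of counts. The SE is the log2 fold change divided by the root of F. A fit of all 47 libraries gave the interaction and the tissue tests. DESeq2 1.42.0 and limma 3.58.1 served as alternatives, and the edgeR diet test was run on simulated data. Of genes given a log2 fold change of 2 either way, it recovered 32.1% in IWAT, 93.3% in BAT, 99.5% in liver and 44.8% in gastrocnemius. False calls were 6.25%, 3.74%, 7.39% and 2.27% of its calls, in the same order. Log2 deviations used a prior count of 2. Limits from a count of 0 cover counting error only.

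Lists of translation factors, ribosome biogenesis, mTORC1 and cell type markers were followed beside the members. Members and lists were chosen with earlier results of these data known. Members were named by these rules: the 3 highest and 3 lowest fold changes per tissue, paralogs and partners, stalk and reference genes, the 5 most counted, the smallest p between tissues and in the interaction, and components outside the pattern. Rpl4, Rpl14, Rpl18, Rpl24, Rps10, Rps15, Rps15a and Rps24 fall outside them and were chosen after their values were seen. Values of some genes are not reported here. Tags were predicted as CATG and the next 23 bases in GENCODE vM1 transcripts. Gene positions and starts are RefSeq on GRCm38.p6.

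Animal numbers are shared by the tissues, so a fit with the animal as a block was an alternative for the tests across tissues. Deviations of the same animal in 2 tissues had mean correlations of -0.08 to 0.06.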

Additional observations from a re-analysis of the deposited data

Results flagged for a closer look

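A test for a single extreme library in groups of 5 or 6 picked 28 of 176 group values. Its rate of about 1 in 20 holds for independent, normally distributed values. Here members share libraries and some were named for an extreme fold change, so the 28 cannot be set against that rate. Gastrocnemius MR3101 gave 8 of them: Rps25 at 8556 CPM, Rpl9 at 8752 CPM, Rpl23 at 6906 CPM, Rpl32 at 5736 CPM, Rpl37 at 2945 CPM and Rps4y2 at 56.3 CPM were high for their group, and Rpl7 at 23.9 CPM and Rpl7l1 at 2.36 CPM were low. IWAT MR3116 gave 4, all high: Rpl23 at 6872 CPM, Rpl9 at 6818 CPM, Rps25 at 3895 CPM and Rps4y2 at 411 CPM. IWAT CON3106 gave 3 of the same genes, Rpl23 at 6895 CPM, Rps25 at 3763 CPM and Rps4y2 at 229 CPM. These 3 libraries are among the 4 that stood apart over all genes.

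IWAT CON3107, the library with the highest lymphocyte marker sum, gave Rpl13a at 1376 CPM, Rps4x at 13.2 CPM, Rps3a at 5.24 CPM and a member share of 5.40%. BAT MR3116 gave Rpl10a at 67509 CPM, Rps4x at 29.7 CPM and a member share of 6.86%. BAT MR3109 gave Rps27l at 914 CPM and Rpl22 at 10.6 CPM. Single values were Rpl32 at 1417 CPM in BAT CON3106, Rpl7l1 at 24.3 CPM in BAT CON3115, Rpl32 at 572 CPM in liver CON3106 and Rpl13a at 542 CPM in liver MR3109. What set these values apart was not tested.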

How the results depend on the processing

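No member passed the diet test in any tissue or in the interaction under any alternative run: DESeq2, limma, other scaling, no filter, normalized values, the joint fit and leaving out libraries. The lowest adjusted p of a member over them was 0.223 in IWAT, 0.0536 in BAT (Rpl10a, joint fit), 0.112 in liver and 0.126 in gastrocnemius. For the alternative diet fits the share of all genes was not counted, so their counts of 0 are no result about the members. For the interaction that share was 0.303% by edgeR with the animal as a block and 1.88% without the 4 libraries that stood apart. A count of 0 members is near these shares. Of 1739 alternative values for 84 named results, 104 had the other sign, none past the threshold. The members' median log2 fold change kept its sign in liver (0.06 to 0.16) but not in gastrocnemius (-0.41 to 0.19), IWAT (-0.17 to 0.40) or BAT (-0.03 to 0.14). Of 46 members, 15 differed between control tissues, 32 without the 4 libraries that stood apart, a setting chosen after seeing the data, as were those without the libraries highest in lymphocyte markers. The cause was not tested. Leaving out 1 restricted gastrocnemius library gave 15 to 22. The share of all genes was not counted for those fits, so this range is no result about the members. With the animal as a replicate block the count was 15 by limma voom (75.5% of all genes), against 17 with no replicate block (76.5%), and 13 by edgeR (73.5%), and the interaction stayed at 0. Members under 10 CPM are limited by depth.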
